A study of Saccharomyces cerevisiae with 30 samples.

Results

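The report concerns 37 nucleotides of yeast 18S ribosomal RNA (rRNA) that carry a natural modification, and the rate at which each was read as a mutation when no chemical had been added. The sites were taken from the known modification map of yeast 18S: 18 carry a 2′-O-methyl group on the ribose, 13 are pseudouridines, C1280 and C1773 are N4-acetylcytidines (ac4C), G1575 is 7-methylguanosine (m7G), A1781 and A1782 are N6-dimethylated adenines, and U1191 is a hypermodified uridine. All 37 had the listed base in the deposited sequence, out of 1800 positions of 18S in a reference of 2012, and all 37 could be tested. The libraries came from a DMS-MaPseq study of budding yeast (Saccharomyces cerevisiae), in which dimethyl sulfate (DMS) marks open A and C bases and reverse transcription reads the marks as mutations. Cells were in mid-log growth in rich medium (YPD). Precursor small subunits (pre-40S), pulled down by TAP-tagged Rio2, a kinase of late assembly, came from WT cells (n = 5), from S15_YRR cells, which carry an altered ribosomal protein S15 (n = 3), and from Rio2_Δloop cells, whose Rio2 lacks a loop (n = 4). Mature 40S subunits (n = 3) completed the set, and the labels used here give neither their strain nor their purification. Each of the 15 biological replicates had an untreated library, the subject here, and a library from 1% DMS at 30 °C for 5 min. A Rio2 pull-down holds every particle that Rio2 is bound to, so a rate in it is a mean over stages of maturation.

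Box C/D snoRNPs guide the methylase Nop1 to the 2′-O-methyl sites and box H/ACA snoRNPs guide the pseudouridine synthase Cbf5, mostly in the nucleolus. Kre33, itself guided by snoRNAs, acetylates the ac4C sites, Bud23 with Trm112 makes m7G, and Dim1 dimethylates the paired adenines near the 3′ end. U1191, in the loop of helix 31 in the head near the decoding P site, is first turned into pseudouridine (guided by snR35), then methylated at N1 by Emg1, and last receives an aminocarboxypropyl (acp) group from Tsr3 in cytoplasmic particles. The acp group and the dimethyl group sit on the pairing face of the base. Pseudouridine and a 2′-O-methyl group leave that face free.

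Stretches of 18S that hold the sites the results turn on are shown 5′ to 3′ from the deposited sequence, with every modified nucleotide of the list in capitals. The first holds U1181, U1187 and U1191, at positions 1176 to 1205.

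helix 31 region: gcggcUuaauuUgacUcaacacggggaaac

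The second, positions 1763 to 1795, holds the acetylated C1773 and the dimethylated A1781 and A1782.

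3′ end: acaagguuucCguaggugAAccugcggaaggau

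The third, positions 1262 to 1297, holds U1269, G1271, the acetylated C1280 and U1290. The fourth, positions 1562 to 1587, holds G1572 and the m7G site G1575.

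C1280 region: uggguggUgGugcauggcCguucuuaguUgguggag

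G1575 region: gcucuucaacGagGaauuccuaguaa

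The last, positions 607 to 639, holds A619, which had the highest rate of the 2′-O-methyl sites, and U632. A619 is the first of 5 consecutive A.

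A619 region: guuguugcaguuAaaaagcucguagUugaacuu

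The untreated libraries had a median effective depth of 3976 to 13261 reads per 18S position. At the 37 sites the depth was 510 to 29753, with 30 of 555 values under 1000. Internal transcribed spacer 1, which only precursors keep, split the particles as labelled: the read depth of the spacer over that of 18S was 0.301 to 0.914 in the pre-40S libraries and 0.00283 to 0.0128 in mature 40S. The untreated profiles fell into 4 sets of libraries that crossed the particles, found at positions outside the 37 sites (r of 0.854 to 0.947 within sets and 0.306 to 0.645 between them). There were 9 libraries in set 1 (replicates 4 and 5 of WT, all of S15_YRR, 3 and 4 of Rio2_Δloop, 2 and 3 of mature 40S) and 4 in set 2 (replicates 2 and 3 of WT, 1 and 2 of Rio2_Δloop), while WT replicate 1 and mature 40S replicate 1 each stood alone. The mean rate of unmodified U was 1.32% to 1.43% in set 1 and 0.435% to 0.554% in set 2, 0.861% in WT replicate 1 and 0.30% in mature 40S replicate 1. The set was therefore a term of the test, and the lone libraries add nothing to its contrasts, which rest on 4 WT, 3 S15_YRR, 4 Rio2_Δloop and 2 mature 40S libraries.

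U1191 separated the particles. Its untreated rate in the 5 WT pre-40S libraries was 2.05%, 2.45%, 2.92%, 2.65% and 4.26% (mean 2.86 ± 0.842, SD, n = 5). In S15_YRR it was 4.06%, 4.45% and 2.76% (mean 3.76 ± 0.888, SD, n = 3). The WT and S15_YRR values overlap. In Rio2_Δloop it was 14.5%, 10.3%, 17.3% and 12.3% (mean 13.6 ± 2.98, SD, n = 4), above every WT and S15_YRR library. In mature 40S it was 76.8%, 81.8% and 83.3% (mean 80.6 ± 3.39, SD, n = 3), so that most reads across the site carried a mutation. Counting error was small beside these gaps: the Wilson 95% interval of the lowest mature library ran from 74.5% to 79.0%.

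In the edgeR quasi-likelihood test over 1795 positions of 18S, with the library set as a term, U1191 rose 26.7-fold from WT pre-40S to mature 40S (log2 4.74, SE 0.238, adjusted p = 1.36e-11). It rose 4.70-fold from WT to Rio2_Δloop (log2 2.23, SE 0.185, adjusted p = 2.50e-07). Mature 40S stayed 5.68-fold above Rio2_Δloop (log2 2.51, SE 0.229, adjusted p = 4.64e-07) and 22.7-fold above S15_YRR (log2 4.50, SE 0.239, adjusted p = 8.16e-11). S15_YRR lay below Rio2_Δloop (log2 -2.0, SE 0.220, adjusted p = 1.55e-05 by edgeR), and the log2 change was -2.37 to -1.94 over 12 other settings. Without the library set term it was -2.11 and missed the threshold (adjusted p = 0.214). The S15_YRR and WT levels were not told apart (log2 0.24, 95% interval -0.19 to 0.67, adjusted p = 0.782 by edgeR). The order of the levels was thus mature 40S, Rio2_Δloop, then S15_YRR and WT with no difference shown between them.

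Set against the mean of the mature libraries as 100%, U1191 stood at 3.55 ± 1.04% in WT (SD, n = 5), 4.66 ± 1.10% in S15_YRR (SD, n = 3) and 16.9 ± 3.70% in Rio2_Δloop (SD, n = 4). These are ratios of mutation rates and not shares of modified molecules, since the rate at a fully modified site was not measured. The DMS libraries of the same preparations gave 3.02%, 4.82% and 18.2%. DMS itself did not move U1191 by a detectable amount (log2 -0.14, SE 0.0936, adjusted p = 0.248 by edgeR over the 15 pairs).

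**Figure D1:**
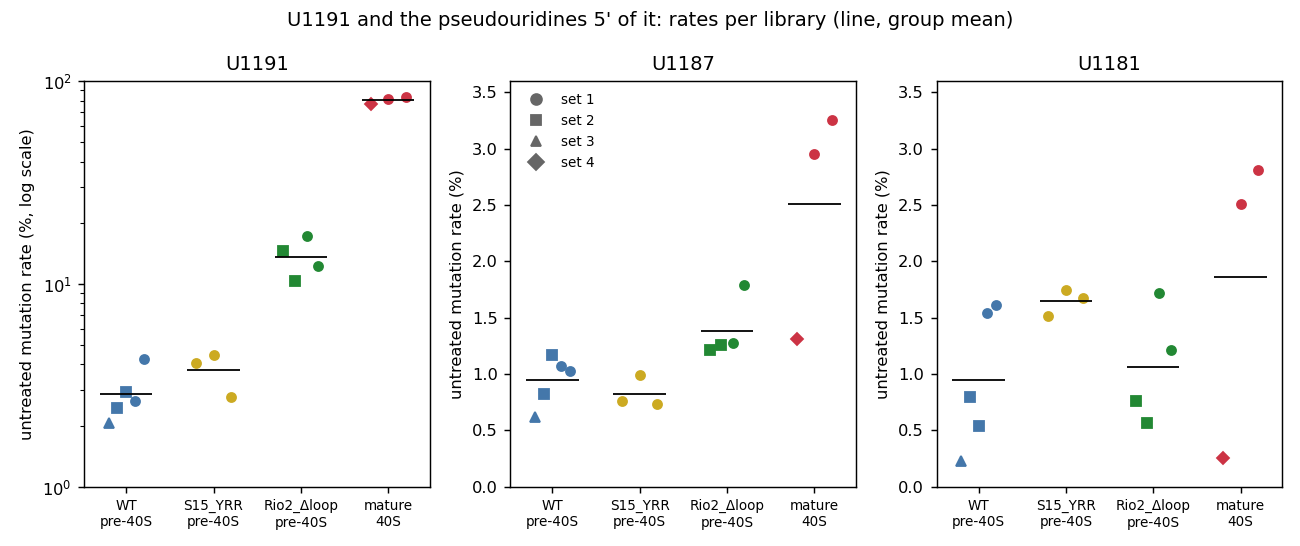
Untreated mutation rate of U1191 (log axis), U1187 and U1181 (linear axes) in percent, with 1 point per library, coloured by particle and shaped by library set, and a line at each group mean. The U1191 groups step from 2.05% to 4.45% in WT and S15_YRR, to 10.3% to 17.3% in Rio2_Δloop and 76.8% to 83.3% in mature 40S, while mature 40S replicate 1 (set 4) lies far below its group at U1187 and U1181.

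The calls at the other sites were few. From WT pre-40S to mature 40S, 3 of the 37 sites rose (U1191, U1187 and U1181) and none fell, where 3.34% of all tested positions were called. From WT to Rio2_Δloop only U1191 of the 37 was called, beside 0.0557% of all positions: U1191 was the single call over 18S. From S15_YRR to mature 40S, 2 rose (U1191 and U1187) beside 1.62% of positions, and from Rio2_Δloop to mature 40S the same pair rose beside 1.78%. Between S15_YRR and Rio2_Δloop, U1191 alone was called, beside 0.501%. Between S15_YRR and WT none of the 37 was called by edgeR or by DESeq2, beside 0.111% of positions, and 1 site (U106) had an unadjusted p under 0.05.

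The pseudouridines U1187 and U1181 lie 5′ of U1191 in the helix 31 region. U1187 was read as a mutation in 0.621%, 0.820%, 1.17%, 1.07% and 1.03% of WT reads and in 0.759%, 0.987% and 0.731% of S15_YRR reads. It stood at 1.22%, 1.26%, 1.27% and 1.79% in Rio2_Δloop and at 1.31%, 2.95% and 3.25% in mature 40S. Mature 40S replicate 1, in its own library set, overlapped Rio2_Δloop, and the other mature libraries lay above all pre-40S libraries. U1187 rose from WT to mature 40S (log2 1.62, SE 0.242, adjusted p = 1.57e-05 by edgeR), from Rio2_Δloop (log2 1.13, SE 0.239, adjusted p = 0.00357) and from S15_YRR (log2 1.95, SE 0.245, adjusted p = 6.32e-07). Without mature 40S replicate 3 the rise from Rio2_Δloop kept its size (log2 1.07) and missed the threshold (adjusted p = 0.157), with a single mature library left to carry the contrast. Between S15_YRR and Rio2_Δloop it missed the threshold (log2 -0.81, adjusted p = 0.0505 by edgeR).

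U1181 gave 0.230%, 0.792%, 0.539%, 1.54% and 1.61% in WT, where the library sets show as steps. It gave 1.51%, 1.75% and 1.67% in S15_YRR, then 0.756%, 0.562%, 1.71% and 1.21% in Rio2_Δloop. In mature 40S it gave 0.251%, 2.51% and 2.81%. Within set 1 both mature values lay above every pre-40S library, while mature replicate 1 was near WT replicate 1. The rise from WT to mature 40S lay near the threshold (log2 0.89, SE 0.251, adjusted p = 0.0394 by edgeR). Leaving out single libraries kept its size (log2 0.82 to 0.97) and lost the call in 8 of 15 cases, with the highest adjusted p (0.385) without mature 40S replicate 3. Of 12 other settings 6 lost the call, with log2 changes of 0.50 to 1.03 over the 12.

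Unmodified neighbours moved with these pseudouridines. Of the 20 positions 5′ of U1191, 16 rose from WT to mature 40S, and these were 14 of the 18 that are not on the list plus U1187 and U1181, with a median log2 change of 1.27 over the 20. The comparison rests on 2 mature libraries. With no library set term, or with the replicate block, most of these 16 calls were lost, as were most calls of the comparison over 18S. The unmodified A1189 rose by a log2 of 1.79 (SE 0.285, adjusted p = 8.17e-05 by edgeR) and A1184 by 1.77 (SE 0.338, adjusted p = 0.000863), beside 1.62 at U1187. Of the 20 positions 3′ of U1191 none rose and 4 fell, with a median log2 change of -0.83. The largest of these falls, at C1195, was -2.91 (SE 0.593, adjusted p = 0.00167 by edgeR). The changes at U1187 and U1181 therefore cannot be told apart from a change of the whole 5′ side of U1191. In Rio2_Δloop against WT none of these 40 neighbours was called, and the median log2 change was 0.34 on the 5′ side and -0.31 on the 3′ side. Against Rio2_Δloop, S15_YRR was lower at A1189 (log2 -1.17, SE 0.252, adjusted p = 0.0121) and C1190 (log2 -1.33, SE 0.291, adjusted p = 0.0121 by edgeR), directly 5′ of U1191.

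Read depth also dropped at U1191. In mature 40S, 1445, 1727 and 1672 reads covered it, which was 19.4%, 29.5% and 23.8% of the mean depth 41 to 50 positions to each side. In Rio2_Δloop the site kept 78.9%, 66.4%, 62.7% and 68.7% of the flanking depth. WT kept 82.6% to 90.8% and S15_YRR 86.5% to 97.5%, so the Rio2_Δloop libraries lay between the mature libraries and the other precursors with no overlap. The dip was measured after the depth had been seen and is a description. Of 1700 positions of 18S with both flanks, only the adjoining C1192 dipped more from pre-40S to mature 40S, and of the 33 listed sites with both flanks U1191 dipped most, followed by U1187 and U1181. A planned measure compared the depth 3 to 12 positions 3′ of U1191 with that 3 to 12 positions 5′ of it. Its log2 ratio was 0.19 to 1.05 in mature 40S (mean 0.63 ± 0.43, SD, n = 3) and -0.24 to 0.28 in the 12 pre-40S libraries (mean 0.05 ± 0.17), a difference of 0.59 (exact two-sided permutation test, p = 0.0220). The ranges overlap. Of the 37 sites, 5 had a larger difference between mature 40S and pre-40S in either direction, namely A1782 (-2.98), A1781 (-2.85), U1181 (-0.64), U211 (0.62) and C1773 (-0.61). A1781, A1782 and C1773 lie near the 3′ end of 18S, past which only precursors keep the spacer. The window 3′ of U1181 takes in U1191 itself. At U211 the mature values were 1.28 in replicate 1 and 0.152 and 0.141 in replicates 2 and 3. In set 1 alone the difference was 0.39 (exact permutation p = 0.167, n = 2 and 7), where so few libraries could not bring the test to 0.05 whatever their values. Without mature 40S replicate 1 the difference was 0.38 and without replicate 3 it was 0.57 (exact permutation p = 0.11 in both). Whether the lower depth alters the measured rates was not tested.

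**Figure D2:**
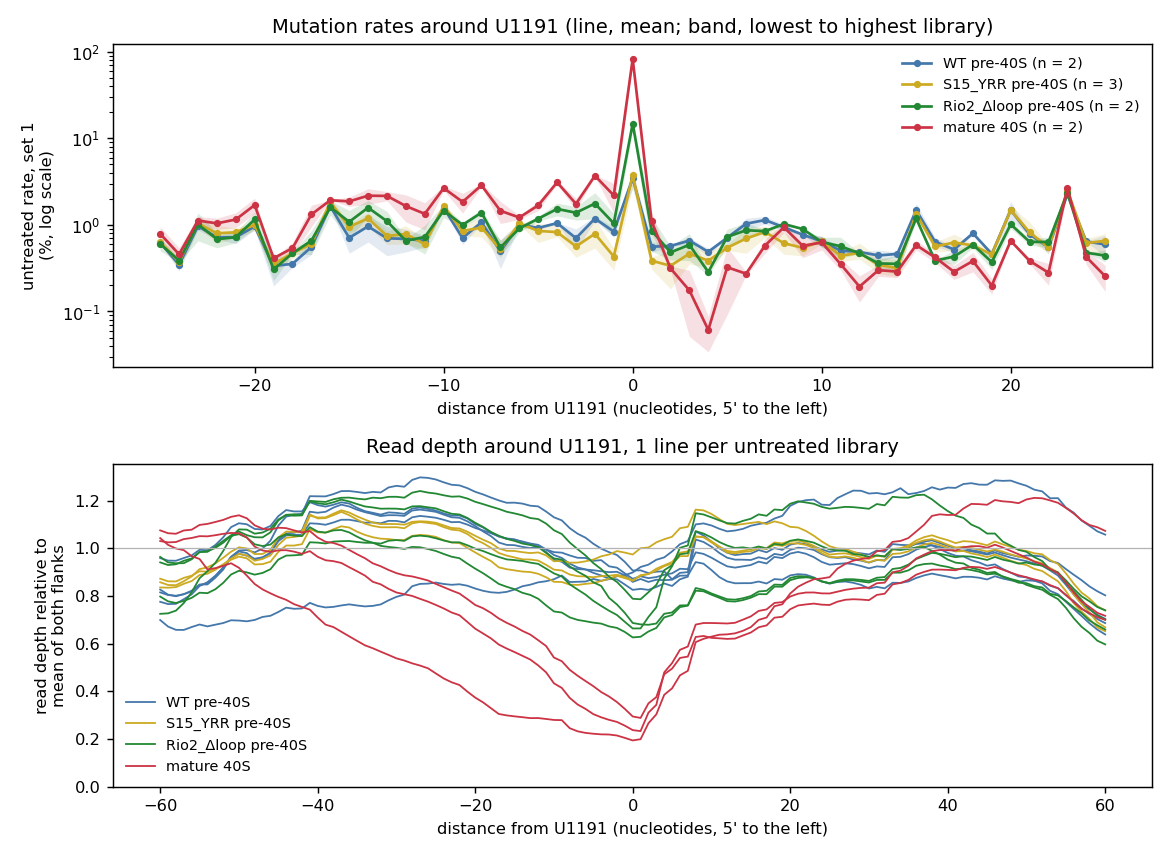
Upper panel, mean untreated mutation rate in library set 1 (percent, log axis) at each distance from U1191, with a line per particle and a band from the lowest to the highest library; lower panel, read depth relative to the mean of the flanks, with a line per untreated library. The mature 40S line lies above the others on the 5′ side and at the first position 3′ of U1191, then below them from the second position to the seventh, and at U1191 its depth falls to 19.4% to 29.5% of the flanks.

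At the ac4C, m7G and dimethyl A sites no comparison of the particles gave a call. The dimethylated A1781 was read as a mutation in 54.1%, 6.14%, 4.99%, 6.80% and 6.48% of WT reads, in 6.56%, 8.75% and 6.09% of S15_YRR reads, in 4.04%, 6.58%, 6.77% and 7.92% of Rio2_Δloop reads and in 6.41%, 8.37% and 8.79% of mature reads. Apart from WT replicate 1 the groups overlap. That library also had 24.3% at the unmodified G1780 and 16.1% at G1778, and its DMS partner had 17.7% at A1781. Since it is alone in its set it carries no weight in the contrasts.

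A1782 stood at 2.54%, 6.86%, 6.26%, 7.12% and 6.29% in WT and at 7.13%, 7.67% and 8.06% in S15_YRR. It stood at 5.24%, 6.86%, 7.67% and 5.92% in Rio2_Δloop and at 5.90%, 8.38% and 6.58% in mature 40S. From WT to mature 40S the log2 changes were 0.44 at A1781 and 0.23 at A1782, and over the 6 comparisons of the particles the lowest adjusted p of the pair was 0.308 (edgeR). The dimethylated pair was not the local peak: over the 14 libraries without WT replicate 1 the unmodified U1779 had a median rate of 9.13% (5.68% to 11.8%), against 6.57% at A1781 and 6.86% at A1782.

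G1575, the m7G site, gave 0.915%, 0.936%, 0.807%, 1.44% and 1.44% in WT and 1.49%, 1.26% and 1.37% in S15_YRR. It gave 1.00%, 1.04%, 1.65% and 1.91% in Rio2_Δloop and 0.862%, 1.67% and 1.60% in mature 40S. The values follow the library sets, with set 1 at 1.26% to 1.91% and all others at 0.807% to 1.04%, while over all libraries the 4 particles overlap. Within set 1 WT (1.44% in both libraries) and S15_YRR (1.26% to 1.49%) lay below mature 40S (1.60% to 1.67%) and Rio2_Δloop (1.65% to 1.91%), and within set 2 WT (0.807% and 0.936%) lay below Rio2_Δloop (1.00% and 1.04%). No comparison called it: the change from WT to Rio2_Δloop was 0.32 on the log2 scale (SE 0.143, adjusted p = 0.814 by edgeR), and that from WT to mature 40S was 0.27 on the log2 scale (SE 0.191, adjusted p = 0.525 by edgeR).

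The acetylated C1280 gave 2.85%, 1.87%, 2.28%, 2.32% and 3.43% in WT, 1.92%, 3.49% and 3.46% in S15_YRR, 1.27%, 1.54%, 3.38% and 3.48% in Rio2_Δloop and 1.70%, 3.55% and 3.65% in mature 40S. C1773, acetylated by the same enzyme, gave 1.42%, 4.29%, 2.32%, 3.08% and 2.37% in WT and 3.22%, 3.37% and 5.13% in S15_YRR. It gave 1.93%, 2.47%, 3.92% and 2.40% in Rio2_Δloop and 1.83%, 2.20% and 3.37% in mature 40S. The groups overlap at both sites. From WT to mature 40S the log2 change was 0.27 at C1280 (SE 0.267) and -0.04 at C1773 (SE 0.354), and neither site was called in any comparison.

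None of the 18 2′-O-methyl sites was called between particles. Their log2 changes ran from -0.89 to 0.41 between mature 40S and WT, from -0.31 to 0.34 between Rio2_Δloop and WT, and from -0.46 to 0.62 between S15_YRR and WT. Their medians were -0.05, 0.02 and -0.11, beside medians over all tested positions of -0.01, 0.01 and 0.00. The lowest adjusted p in the class was 0.248 (A420, mature 40S against WT, edgeR). Of the 13 pseudouridines, 11 were not called in any comparison. Their class had medians of -0.16, -0.07 and -0.07 in the comparisons with WT, and U106 (log2 -0.85, SE 0.279, adjusted p = 0.0902 by edgeR) lay nearest to a call in mature 40S after U1187 and U1181.

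**Figure D3:**
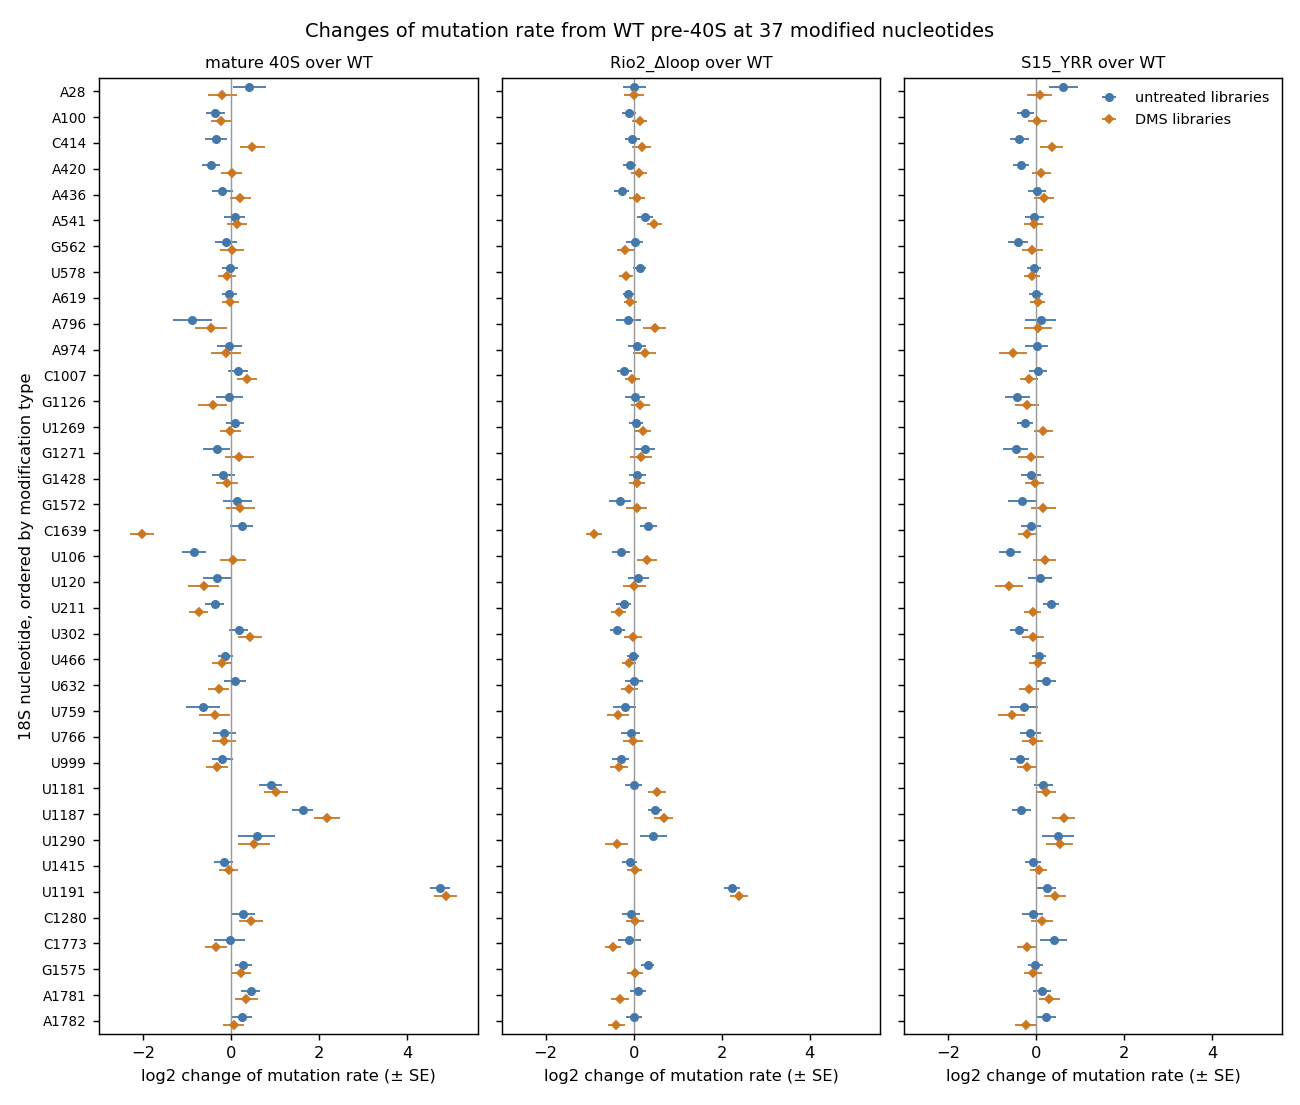
Log2 change of the mutation rate from WT pre-40S, with its standard error, at the 37 sites ordered by modification type, in untreated libraries (circles) and DMS libraries (diamonds). U1191 stands out for mature 40S (4.74) and Rio2_Δloop (2.23), U1187 and U1181 for mature 40S alone, and C1639 is lower in the DMS libraries only.

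The levels themselves differed by type of modification. They are compared with the median over all other 18S positions of the same base in the same library, as a description without a test. In the 9 libraries of set 1 the dimethylated adenines had a median of 6.38% to 8.37%, against 0.401% to 0.499% at other A. The acetylated cytidines had 2.57% to 4.29%, against 0.423% to 0.545% at other C. G1575 had 1.26% to 1.91%, against 0.484% to 0.530% at other G. U1191 was above other U (1.16% to 1.28%) in each of these libraries, from 2.65% in WT replicate 4 up. With means taken over all particles of a set, no unmodified U lay above U1191 in either set with several libraries. Nor did an unmodified A lie above A1781 or A1782, and at most 1 unmodified C lay above C1280 or C1773. The U1191 mean mixes particles: in every WT and S15_YRR library the unmodified U1779 was higher (9.57% against 2.65% in WT replicate 4). The ac4C and dimethyl A sites lie in stretches with raised rates, so their gap to the 5 positions on each side was narrower. By mean rate in set 1, C1280 had 3.19% beside a neighbour median of 1.89%, and the unmodified U1276 had 3.82%. C1773 had 3.23% beside 1.60%, A1781 7.39% beside 2.80% and A1782 7.20% beside 2.53%. At G1575 the gap was not narrower (1.54% beside 0.279%).

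The 2′-O-methyl sites depended on the base. The methylated U578 and U1269 had a median of 2.51% to 3.56% in set 1, above other U in all 15 libraries. The 8 methylated A had 0.570% to 0.757%, also above other A in all 15. The 3 methylated C were above other C in 6 of the 9 libraries of set 1 and the 5 methylated G above other G in 4 of 9. A619 had the highest mean of the class, 4.15% over the 15 libraries (3.59% to 5.27%), with no unmodified A above it in set 1 or set 2. In set 1 it was 18.5 times the median of the 5 positions on each side. It hardly differed between sets (mean 4.04% in set 1 and 4.14% in set 2). A28, near the 5′ end, had the lowest mean, 0.173% (0.0683% to 0.330%).

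Pseudouridines as a class lay close to unmodified U. Their median in set 1 was 0.731% to 1.42%, above that of other U in 2 of the 9 libraries. In set 2 it was 0.436% to 0.547%, against 0.371% to 0.499% at other U, and above it in 3 of the 4 libraries. By rank, 7 of the 13 lay above the median of other U in each set. U466 had the highest mean, 2.16% over the 15 libraries (0.974% to 3.10%), and U999 the lowest, 0.394% (0.11% to 0.705%). Unmodified U as a whole read higher in set 1 (1.32% to 1.43%) than in set 2 (0.435% to 0.554%), which holds WT and Rio2_Δloop alone. Most pseudouridines did the same, with a higher mean in set 1 than in set 2 at 12 of 13. The difference was wide at U1415 (1.87% and 0.323%) and U766 (1.66% and 0.420%) and narrow at U106 (0.585% and 0.488%), and U759 went the other way (0.659% and 0.84%).

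**Figure D4:**
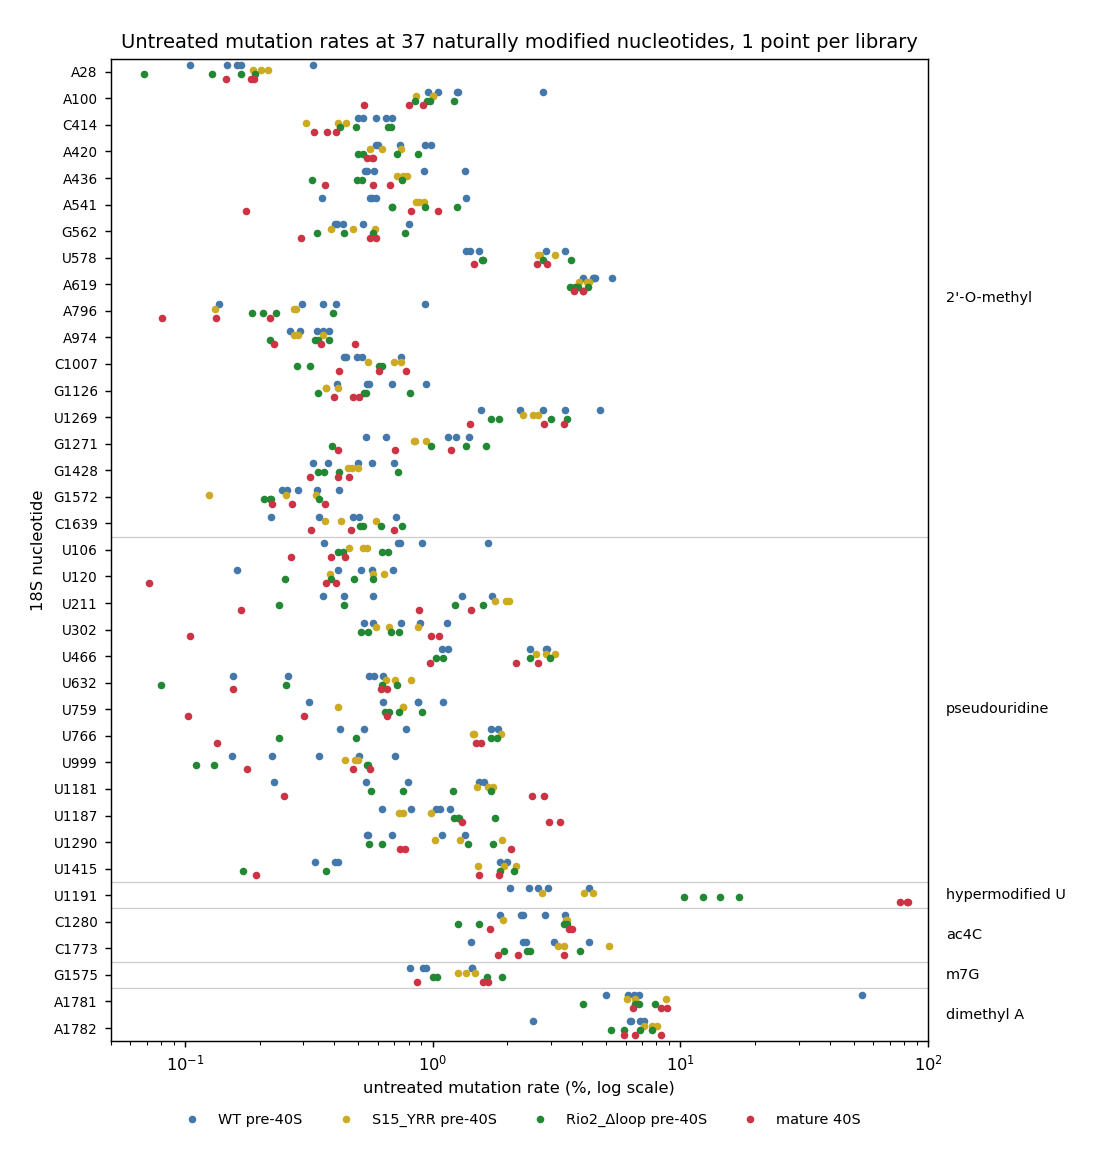
Untreated mutation rate (percent, log axis) of the 37 sites, grouped by modification type, with 1 point per library coloured by particle. At U1191 mature 40S lies at 76.8% to 83.3%, apart from all pre-40S libraries, and 1 WT library stands at 54.1% at A1781.

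Ranks among positions of the same base use the mean over all particles of a set. By this rank 24 of the 37 sites lay above the median in set 1 and 24 in set 2. Above the 95th percentile were 7 sites in set 1 (U1191, A1781, A1782, C1280, C1773, G1575 and A619) and 8 in set 2, where U578 and U1269 joined and G1575 did not. By mean rate in set 1, a modified site was the highest of the 11 positions around it in 9 of 37 cases. These were U466, U578, A619, U766, U1181, U1191, U1269, G1575 and C1773, beside 8.84% of the 1753 other positions with such a window. Most of the 9 are U, and the 8.84% was not split by base. Medians in set 1 were 1.16% to 1.28% at unmodified U, 0.401% to 0.499% at A, 0.423% to 0.545% at C and 0.484% to 0.530% at G. The sites also sit in runs of the same base: 27 of 37 (73.0%) had an identical base next to them, beside 51.0% of other 18S positions. Whether runs alter the rates was not tested.

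**Figure D5:**
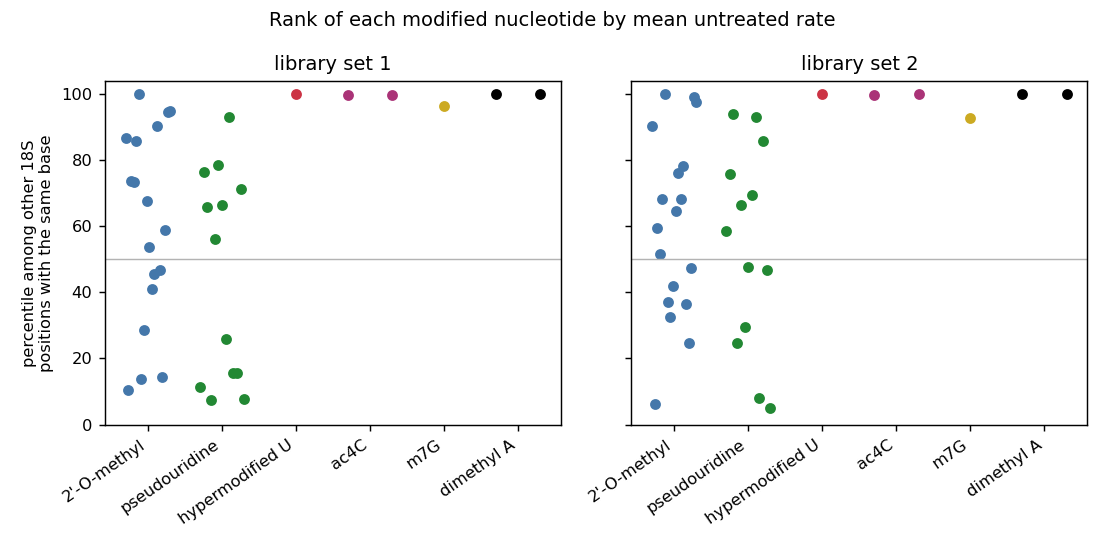
Percentile of each modified site among the other 18S positions with the same base, by modification type, in library set 1 (left) and set 2 (right). Sites are ranked by mean untreated rate over all particles of the set, and the line marks the 50th percentile. The hypermodified U, ac4C and dimethyl A sites lie at or near 100 in both sets, and the 2′-O-methyl and pseudouridine sites spread over most of the range.

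The DMS libraries of the same preparations offer a second reading, but not an independent one, since they share their RNA with the untreated libraries and A and C also carry the DMS signal. From WT to mature 40S 4 sites were called (4.01% of positions): U1191 (log2 4.87), U1187 (log2 2.18) and U1181 (log2 1.02) rose and the 2′-O-methylated C1639 fell (log2 -2.03, SE 0.268, adjusted p = 4.93e-06 by edgeR). From WT to Rio2_Δloop U1191 rose (log2 2.40) and C1639 fell (log2 -0.90, SE 0.183, adjusted p = 0.00877), beside 0.836% of positions. U1191 and U1187 rose and C1639 fell from Rio2_Δloop to mature 40S (2.06% of positions) and from S15_YRR to mature 40S (2.79%). Between S15_YRR and Rio2_Δloop U1191 alone was called (0.111%). Between S15_YRR and WT no position was called (0%), where edgeR gave 33 positions an unadjusted p under 0.05.

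C1639, in helix 44 at the decoding centre, was the single site of the 37 that rose with DMS over the 15 pairs (log2 1.60, SE 0.268, adjusted p = 0.000266 by edgeR), beside 13.0% of all positions and 26.6% of A and C. Its rate in the DMS libraries was 1.99% to 3.08% in WT, 2.25% to 3.13% in S15_YRR, 0.881% to 2.18% in Rio2_Δloop and 0.578% to 0.823% in mature 40S. Untreated it was 0.222% to 0.75% over all libraries, with the 4 particles overlapping. No untreated comparison called C1639, and the difference between the treated and untreated changes was not tested. Another 5 sites (U302, U466, U1187, U1269 and C1280) were lower with DMS by 0.24 to 0.33 on the log2 scale, beside 17.6% of positions. All 5 calls were lost when the library scale was taken from G and U alone, an alternative chosen after seeing the data. Over 6 other settings, that one included, the call was lost in 3 at U466, in 4 each at U302, U1187 and C1280 and in 5 at U1269. Leaving out a replicate lost the call at U1269 in 6 of 15 cases.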

How the data were processed

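Untreated and DMS-treated libraries of 15 replicates (WT pre-40S 5, S15_YRR pre-40S 3, Rio2_Δloop pre-40S 4, mature 40S 3) were analysed as deposited. Per the file headers, the authors' profile of each library lists counts of mutations, of reads and of effective reads per position. The deposited rate is a fraction, mutations over effective depth, and recomputing it changed no value by more than 5e-07. The aligner, the counting tool, their versions and filters are not given in the sources used here. Deletions and substitutions are not separated in these columns, and the depth of reads does not say how many molecules were read. Positions are numbered on 18S, without genome coordinates. The deposited table of normalized DMS signal, with 0 at G and U, was not used.

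The modified sites, the library sets and the tests were chosen with earlier results of these data known. Mutation counts were tested at 18S positions that reached 300 effective reads in each untreated library and at least 30 mutations over the 15, with edgeR 4.0.16 (robust quasi-likelihood F test, R 4.3.3), with particle and library set as terms. The offset was log effective depth plus the log of a per-library factor (median of ratios of rates). P-values were adjusted over all tested positions (Benjamini-Hochberg, threshold 0.05). DMS and untreated libraries were compared in the same way over at least 60 mutations, with the preparation as a block. Sets came from average-linkage clustering of log2 rates (plus 0.0005 as a fraction), split at r of 0.75. The test was tried on simulated counts. Intervals of rates are Wilson 95% intervals and cover counting error only. The SE of an edgeR log2 change is its absolute value over the square root of the F statistic. The 95% interval of a log2 change is a normal interval from that SE and includes the spread between libraries.

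Values of every library are given for U1191, A1781, A1782, G1575, C1280 and C1773 and for each other site called between particles, and the highest and lowest of each type are named; other sites were named after their values were seen. Alternatives were no set term, set 1 alone, no scale, TMM, other filters, read depth, limma 3.58.1, DESeq2 1.42.0, a replicate block, the DMS libraries and leaving out each replicate. Replicate numbers were not used to pair samples of different particles in the main test. Permutation tests used scipy 1.17.1 in Python 3.11.15, and figures matplotlib 3.10.9.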

Additional observations from a re-analysis of the deposited data

Results flagged for a closer look

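In groups of 4 and 5 libraries, 8 of 74 group and site combinations held a library far from the rest, measured as its gap to the nearest library over the range of the group. Chance would give about 1 in 20 for independent libraries from 1 normal distribution. These groups mix library sets and the sites of a library are not independent, so that share is no baseline here. WT replicate 1, alone in its library set, accounts for 4 of them: A1781 at 54.1% (the other WT libraries 4.99% to 6.80%), A1782 at 2.54% (others 6.26% to 7.12%), A100 at 2.80% (others 0.959% to 1.27%) and A28 at 0.330% (others 0.105% to 0.168%). WT replicate 5 stood high at A541 with 1.36% (others 0.356% to 0.591%) and at C1007 with 0.742% (others 0.437% to 0.520%). In Rio2_Δloop, replicate 4 stood high at U1187 with 1.79% (others 1.22% to 1.27%) and replicate 2 at G1572 with 0.348% (others 0.208% to 0.222%). The causes were not tested.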

How the results depend on the processing

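The rise of U1191 held at the threshold under all 27 alternatives (12 settings and 15 left-out replicates) in the comparisons of mature 40S with WT (log2 4.40 to 5.10), Rio2_Δloop (2.28 to 2.73) and S15_YRR (4.33 to 4.84) and of Rio2_Δloop with WT (2.03 to 2.40). Counts of called sites moved in some settings. Rio2_Δloop against WT gave 2 in the DMS libraries. Mature 40S against Rio2_Δloop gave 1 with no library set term and 1 to 3 when single replicates were left out. S15_YRR against Rio2_Δloop gave 0 with no library set term, 2 with a depth minimum of 1000, with a mean rate of 0.001 or more (a fraction) and with no filter on mutations (U1187 joined), and 1 to 2 with a replicate left out. Sites higher with DMS became 2 (A796 joined) in set 1 alone and with the scale from G and U, and 1 to 2 with a replicate left out. The depth difference at U1191 was 0.48 over 3 to 32 positions (exact permutation p = 0.0703) and 0.39 in set 1 (p = 0.167), and 0.38 to 0.81 with a library left out. Leaving out a replicate gave 2 to 4 called sites for mature 40S against WT and 2 to 3 against S15_YRR.

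Calls over all positions depended more on the settings. In the order mature 40S against WT, Rio2_Δloop against WT, S15_YRR against WT, mature 40S against Rio2_Δloop, mature 40S against S15_YRR and S15_YRR against Rio2_Δloop they were 60, 1, 2, 32, 29 and 9. With no library set term they were 6, 1, 0, 3, 2 and 0, and with DESeq2 29, 1, 2, 14, 17 and 7. In the other settings, the replicate block aside, they spanned 48 to 72, 1 to 15, 0 to 4, 18 to 37, 19 to 50 and 2 to 17. With a replicate left out they spanned 11 to 66, 1 to 2, 0 to 8, 10 to 51, 12 to 36 and 4 to 33. Calls between DMS and untreated libraries were 550, against 281 with no scale, 208 with no replicate block and 342 with the scale from G and U. Deviations from the fit in same-numbered libraries of different particles had r of -0.476 to 0.106. Differently numbered libraries were not compared beside them, so these values do not settle whether the numbers pair samples. With the replicate block 2, 1, 0, 2, 2 and 1 sites and 5, 1, 0, 12, 27 and 2 positions were called, and U1191 rose by 4.40 from WT to mature 40S. At A28, A796 and other low sites few mutations limit precision, and 2 mature libraries carry every contrast with mature 40S. The causes of these differences were not tested.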
